A study of Mus musculus with 3 samples.

Results

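The genes described here, called lncRNA genes after their annotation, are the 200 genes annotated as lincRNA or processed_transcript with the most reads in an experiment on mouse embryoid bodies (EBs). They were chosen by the sum of the estimated counts over the 3 libraries, after the imprinted genes H19, Meg3, Rian, Mirg, Airn, Kcnq1ot1, Peg13 and Nespas were set aside, which removed 4 genes of these types. The rule left 6404 candidates in a table of 55487 genes, and 1503 of the candidates had any count. Of the 200 members, 119 were lincRNA genes (of 5629 in the table) and 81 were processed_transcript genes (of 779). The sums ranged from 106 to 48730 counts, with a median of 280.5, and the members held 88.0% of all counts of these types. The type given in the table alone decided membership. Of 151 members with a RefSeq gene of the same symbol, RefSeq lists 135 as lncRNA, 11 as protein-coding (among them Ifi30, Trerf1 and Spata5l1) and 4 as pseudogenes (Erdr1, Gm10076, Gm4425 and Gm4961). A further 11 members have over 50% of their exon bases in exons of coding genes, such as Gm21982 over Rbm42 and Haus5. Because the level alone selected them, the high counts of the members are not a finding, and only the comparison of the libraries is described below. The last 3 genes inside the limit were 2900041M22Rik and Stamos, each with a sum of 107 counts, and Gm15706 with 106. The first 3 outside were Gm32585 with 106 (a tie settled by gene identifier), Gm48693 with 105.8 and 2410018L13Rik with 104.9.

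The EBs came from the E14K mouse ES cell line, wild type (WT), grown in hanging drops and then in suspension in medium without LIF, the cytokine that keeps ES cells undifferentiated. The 3 groups were control EBs on day 3, control EBs on day 4, and EBs on day 4 that had received 30 μM C2 ceramide, a ceramide with a short acyl chain that can pass into cells, from the start of day 3. The controls received DMSO, the vehicle. Each group was 1 library made from many pooled cells, so the study asked about the effect of time and of ceramide with no replicate, and no difference between libraries can be tested. A member is called higher or lower where the ratio of its levels in TPM (a share of all transcripts that is corrected for transcript length) was above 2 or below 0.5. An interval beside a log2 TPM ratio is the exact 95% interval from the counts. It covers counting error only and says nothing of the spread between cultures.

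Long noncoding RNAs (lncRNAs) are transcripts with no long reading frame. Some act in the nucleus as scaffolds of nuclear bodies or chromatin, and others are mainly the spliced remains of host genes whose introns carry small nucleolar RNAs (snoRNAs) or whose primary transcript carries microRNAs (miRNAs). Many more are transcribed from the start region of a coding gene in the opposite direction, and a further set is known from ES cells, where it marks or helps to keep the pluripotent state.

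The libraries held 33619197, 35078820 and 35290094 counts for control day 3, control day 4 and C2 ceramide day 4, of which mitochondrial transcripts took between 0.651% and 0.768%. The label was checked with marker genes. All 8 markers of the primitive streak and mesoderm were higher on control day 4 than on control day 3 and all 8 were lower with C2 ceramide than on control day 4, and their summed level was 90.6, 926 and 69.7 TPM in the order above, which values given as 3 numbers follow throughout. The 10 pluripotency markers summed to 9801, 5577 and 10086 TPM and none was at 0. Markers of definitive endoderm summed to 9.01, 687 and 6.41 TPM, of visceral endoderm to 1.58, 4.16 and 2.72, of neuroectoderm to 19.2, 19.6 and 39.8, and of blood and endothelium to 12.3, 22.3 and 14.4. Since these are bulk libraries, fewer cells of a type and less RNA per cell cannot be told apart in any result below.

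The members took 0.228% of the counts on control day 3, 0.198% on control day 4 and 0.233% with C2 ceramide. Summed over the members, the level was 4844, 4337 and 5037 TPM. Malat1 alone, the abundant RNA of nuclear speckles, made up 20.8% of the member counts on control day 3 and 24.7% with C2 ceramide, and its share was lowest on control day 4. The median member stood at 2.94, 2.90 and 3.02 TPM, and 75 members had at least 100 counts in every library.

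Most members kept their level between libraries within 2-fold. From control day 3 to control day 4, 15 members were higher and 28 were lower, which is 7.5% and 14.0% of the 200. Over all 17655 genes with at least 10 counts in a library, 12.8% were higher and 9.45% were lower, and among 12497 protein-coding genes with at least the count sum of the lowest member, 7.91% and 4.63%. With C2 ceramide on day 4, set against control day 4, 17 members (8.5%) were higher and 15 (7.5%) were lower. For all genes the shares were 9.97% and 12.3%, and for the abundant protein-coding genes 5.7% and 6.86%. When the same ratios were taken from CPM (counts scaled to the library total), which leave transcript length aside, 20 were higher and 11 were lower. Against control day 3, C2 ceramide gave 15 higher and 16 lower members, beside 11.2% and 9.39% of all genes and 6.42% and 4.13% of the abundant protein-coding genes. Of the 6 shares, only that of members lower on control day 4 than on control day 3 was above that of all genes. Beside the abundant protein-coding genes, every share but that of members higher on control day 4 than on control day 3 was above. All 6 were below those of the 618 tested genes of these types, many of them less abundant. There 19.7% and 23.9%, 21.4% and 21.8%, and 20.2% and 21.4% were higher and lower, with the comparisons in the order above. All comparisons draw on the same 3 libraries, and the comparisons with control day 4 share it.

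The median log2 TPM ratio of the members was −0.11 for control day 4 over control day 3, 0.10 for C2 ceramide over control day 4 and −0.11 for C2 ceramide over control day 3. Over all genes tested it was 0.05, −0.03 and 0.03. Within 2-fold lay 157, 168 and 169 members in the same order, and the interval of 89, 101 and 92 members included no difference. Where the whole interval had to lie beyond 2-fold, 6 members were higher and 8 lower on control day 4, 7 and 7 with C2 ceramide against control day 4, and 7 and 8 against control day 3. The calls lay mainly among the less abundant members. Of the 50 members with the most counts, none was higher and 4 were lower on control day 4 than on control day 3, and 2 were higher and none was lower with C2 ceramide than in controls on day 4. Of the other 150 members, 15 were higher and 24 lower in the first comparison, and 15 and 15 in the second.

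**Figure D1:**
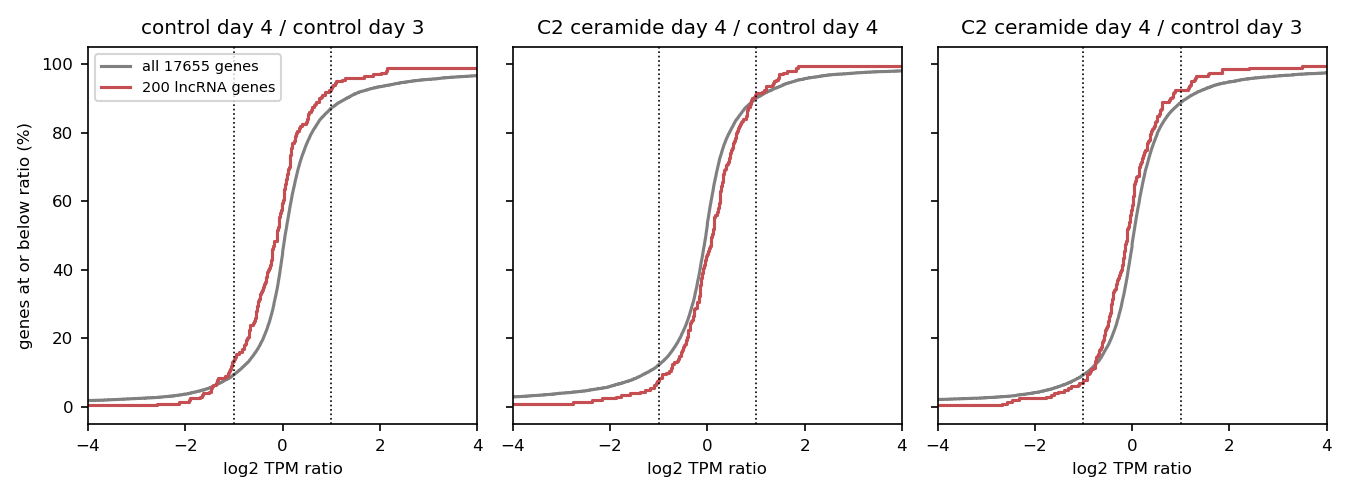
Cumulative share of genes (vertical, in percent) at or below a log2 TPM ratio (horizontal) for the 200 lncRNA genes and for all 17655 genes tested, in each of the 3 comparisons, with dotted lines at 2-fold. The members' curve lies left of that of all genes around 0 for control day 4 over control day 3, where their median was −0.11 against 0.05, and right of it for C2 ceramide over control day 4, where the medians were 0.10 and −0.03.

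Sorted by the library that stood apart, control day 3 was above 2 times both others in 6 members and below 0.5 times both in 7, where all genes gave 3.74% and 6.12%. Control day 4 was the highest by this rule in 7 members and the lowest in 10, beside 6.65% and 4.94% of all genes. C2 ceramide was the highest in 6 and the lowest in 6, beside 4.67% and 5.15%. The 10 members lowest on control day 4 were Platr10, Platr22, 1500004A13Rik, Bvht, Platr21, 1700030C10Rik, Platr7, 5033406O09Rik, 2310015A10Rik and 2900041M22Rik.

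The most abundant members stayed within 2-fold between libraries. Malat1 stood at 1041 TPM on control day 3, 801 on control day 4 and 1290 with C2 ceramide. It was lowest on control day 4, and its log2 TPM ratio of C2 ceramide over control day 4 was 0.69 (interval 0.65 to 0.72), below the 2-fold limit. Gm47283, a gene with near-identical copies that the annotation places on chromosome Y, stood at 498, 530 and 619 TPM. Erdr1, which also has such copies, stood at 131, 157 and 166 TPM. Their counts were not whole numbers, which marks reads shared with other genes, so their levels are uncertain. The same mark was found in 94 members in all, among them Malat1, Gm10076 and the snoRNA host Snhg14 described below. The levels of these members carry the same uncertainty, which the intervals do not cover, and its size was not tested. Gas5, a snoRNA host known as a growth arrest transcript, stood at 414, 418 and 479 TPM. The order of the next genes by their highest level was 2410006H16Rik, 2010204K13Rik, Erdr1, AA465934 and Gm10076, each between 96.4 and 246.5 TPM in every library, and none of these genes was called in any comparison.

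**Figure D2:**
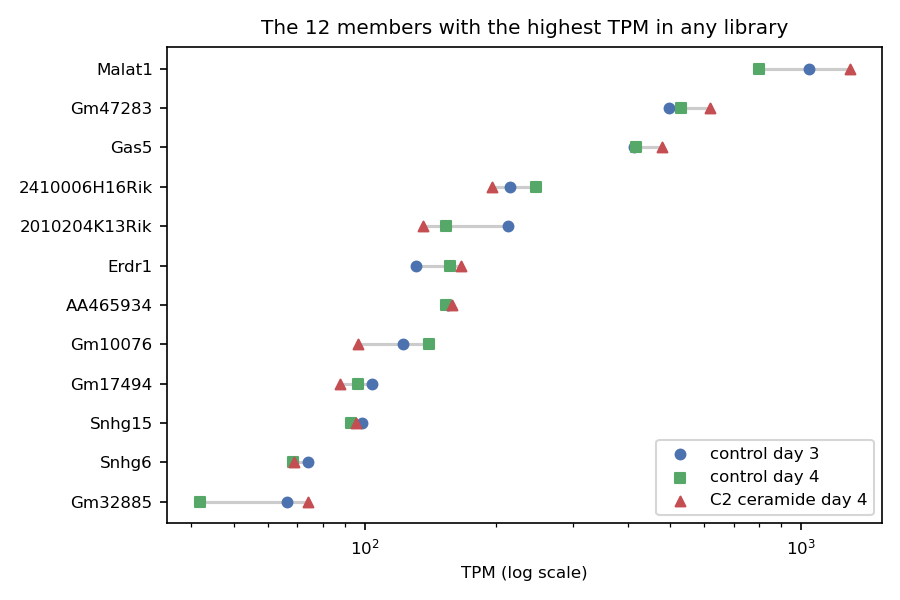
Level in TPM (horizontal, log scale) of the 12 members with the highest value in any library, with 1 point per library. The 3 points of each gene lie close together, and Malat1 spans 801 to 1290 TPM with C2 ceramide highest and control day 4 lowest.

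Neat1, the scaffold RNA of paraspeckles and a neighbour of Malat1 on chromosome 19, stood at 5.54, 6.97 and 12.8 TPM. Its counts were 657, 832 and 1390. C2 ceramide was the highest library, with a log2 TPM ratio of 0.88 (interval 0.75 to 1.01) over control day 4 and of 1.21 (interval 1.08 to 1.35) over control day 3, so it was called higher only against control day 3. Firre, an X-linked RNA that shapes nuclear architecture, stood at 9.56, 7.66 and 6.23 TPM and was not called. Ftx, an X-linked gene of the X-inactivation centre, stood at 4.51, 2.07 and 3.28 TPM and was called lower on control day 4, with a log2 TPM ratio of −1.12 (interval −1.49 to −0.77). Of the 11 members on the X chromosome, 4 were lower on control day 4 (Ftx, 4933407K13Rik, Gm21986 and Platr21) and none was higher, beside 11.8% lower and 14.4% higher of the 653 X-linked genes tested. By CPM 4933407K13Rik and Platr21 were at −0.43 and −0.95, within 2-fold, which leaves 2 of the 4 calls, Ftx and Gm21986. Gm21986 has over 50% of its exon bases in exons of coding genes. Its reads cannot be told apart from those of the genes it overlaps, Nlgn3 and Med12. Of all 10 listed lncRNAs of nuclear bodies and architecture, 5 were members. None of these was called with C2 ceramide against control day 4.

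The hosts of snoRNAs mostly stayed within 2-fold. Of 22 such genes listed, 16 were members. On control day 4 none of these was higher and 1 was lower than on control day 3, while with C2 ceramide none was called against control day 4. Of all genes, 12.8% were higher and 9.45% lower in the first comparison, and 9.97% and 12.3% in the second. For the abundant protein-coding genes the shares were 7.91% and 4.63%, and 5.7% and 6.86%. With 16 genes, such shares amount to few calls. Their median log2 TPM ratios were −0.31 and 0.09, and their summed level was 1104, 985 and 1088 TPM. The 1 lower gene was Snhg14, a very long imprinted host that carries 208 of the 269 snoRNA genes found within 24 members. It stood at 16.4, 5.72 and 8.10 TPM, highest on control day 3, with a log2 TPM ratio of −1.51 (interval −1.75 to −1.28) for control day 4 over control day 3. The body of Snhg14 overlaps the coding genes Gm38393, on the same strand, and Ube3a, on the other. It shares at most 1803 of its 26093 exon bases with either, and reads of shared bases may not be told apart. Against control day 3, C2 ceramide gave −1.01 for Snhg14 and −1.12 for Snhg3, the 2 hosts called lower there. By CPM these were −0.78 and −0.97, within 2-fold. Among all 24 members holding a snoRNA gene, B830012L14Rik was the 1 higher with C2 ceramide against control day 4, at a log2 TPM ratio of 1.35. Against control day 3, 9330159M07Rik was the 1 higher, at 1.15. Neither is in the list of 22. Dancr, a host named for its effect on differentiation, stood at 37.2, 21.7 and 20.3 TPM, and Snhg1 at 66.4, 52.4 and 72.9 TPM. Only 2 snoRNA genes of the table passed the count minimum themselves in these libraries, whose cDNA was primed on poly(A) tails. These values are of the host genes, and the snoRNAs are not described.

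Transcripts of ribosomal proteins and of many snoRNA hosts begin with a C and a run of pyrimidines, the tract that ties their translation to growth signals. The start regions of the hosts are shown for that reason. RefSeq promoters (GRCm38.p6, 250 bases before to 50 after the start) were matched for 111 of the 200 members, with the RefSeq start within 1000 bases of the start in the table, and for 19 of the 24 members holding a snoRNA gene. A C followed by at least 4 further pyrimidines, starting within 5 bases of the RefSeq start on the transcribed strand, was found in 8 of these 19, in 25 of the 111 members (22.5%) and in 18.3% of all 32851 promoters. A RefSeq start can be some bases off the true one, so a missing run says only that these letters are not in this window. The 8 windows run from 15 bases before the start, which is their 16th base, and the run is in capitals.
2410006H16Rik, chr11:62602862-62602901, plus strand: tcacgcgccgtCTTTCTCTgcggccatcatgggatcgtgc
1110038B12Rik, chr17:34952447-34952486, minus strand: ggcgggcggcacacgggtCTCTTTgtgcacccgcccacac
Snhg8, chr3:123508312-123508351, minus strand: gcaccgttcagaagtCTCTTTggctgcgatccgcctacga
Snhg12, chr4:132308663-132308702, plus strand: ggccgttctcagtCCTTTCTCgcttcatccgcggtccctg
Snhg3, chr4:132353662-132353701, minus strand: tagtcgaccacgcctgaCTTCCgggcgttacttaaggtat
Snhg18, chr15:32244638-32244677, minus strand: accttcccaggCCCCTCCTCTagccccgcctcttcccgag
2700038G22Rik, chr5:23850582-23850621, plus strand: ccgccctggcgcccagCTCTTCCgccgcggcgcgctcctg
AI506816, chr5:23712643-23712682, minus strand: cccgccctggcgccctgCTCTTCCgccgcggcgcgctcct

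The last pair lie on opposite strands of chromosome 5, and their windows share a run of 24 bases. Both were highest on control day 3, 9.17, 5.45 and 6.55 TPM for 2700038G22Rik and 15.3, 10.5 and 11.4 TPM for AI506816. 2410006H16Rik stood at 214, 246 and 195 TPM, 1110038B12Rik at 66.5, 67.4 and 64.3 TPM, and Snhg8 at 52.4, 37.1 and 46.1 TPM, and none of the 8 was called on control day 4 or with C2 ceramide against control day 4.

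Calls were made in both directions among the miRNA hosts. In all, 11 members held 29 miRNA genes, and 2 of the 11 were higher and 2 lower on control day 4, while 2 were higher and none lower with C2 ceramide than in controls on day 4. A count of 2 is 18.2% of the 11, beside 12.8% and 9.45% of all genes in the first comparison and 9.97% higher in the second. Their mature miRNAs were not measured, since 3 miRNA genes of the table passed the count minimum. The sequences of the hosts that follow are printed to show which miRNAs share a seed, the bases 2 to 8 that pair with targets, given here in capitals from RefSeq on GRCm38.p6. Mir17hg, at chr14:115042879-115046727, is the host of the miR-17 cluster of proliferating cells. In this cluster miR-17 and miR-20a share a seed, as do miR-19a and miR-19b.
miR-17-5p: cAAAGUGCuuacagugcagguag
miR-20a-5p: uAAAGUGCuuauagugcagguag
miR-18a-5p: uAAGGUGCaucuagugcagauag
miR-19a-3p: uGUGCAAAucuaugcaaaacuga
miR-19b-3p: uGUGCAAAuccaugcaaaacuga
miR-92a-3p: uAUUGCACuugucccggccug
6720427I07Rik at chr13:48532905-48546500 holds the let-7d, let-7f and let-7a genes, all of 1 seed, and let-7 is known to rise as cells leave the embryonic state.
let-7d-5p: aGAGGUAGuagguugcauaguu
let-7f-5p: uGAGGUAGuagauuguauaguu
let-7a-5p: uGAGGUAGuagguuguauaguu
Mir9-3hg at chr7:79500026-79534403 holds a miR-9 gene, a miRNA of neural progenitors with a different seed on each arm.
miR-9-5p: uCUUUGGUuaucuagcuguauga
miR-9-3p: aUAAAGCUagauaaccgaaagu

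Mir17hg stood at 2.92, 2.23 and 2.64 TPM and was not called in any comparison. Mir9-3hg had 19 counts on control day 3, 65 on control day 4 and 143 with C2 ceramide, at 0.783, 1.90 and 4.13 TPM. Each library stood above the last, and the log2 TPM ratio was 1.28 (interval 0.52 to 2.10) for control day 4 over control day 3 and 1.12 (interval 0.69 to 1.57) for C2 ceramide over control day 4. Among the 6 neuroectoderm markers, 5 were above their control day 4 level with C2 ceramide, 3 of them by more than 2-fold, and Sox1 had 0, 0 and 66 counts. Zic1 was below it, with 8, 4 and 0 counts. From control day 3 to control day 4, 1 of the 6 markers rose and 4 fell, with a median log2 TPM ratio of −0.58. Their part in the value of Mir9-3hg was not tested. 6720427I07Rik stood at 0.169, 0.617 and 0.609 TPM, lowest on control day 3 and nearly equal in both day 4 libraries. Its log2 TPM ratio was 1.87 (interval 1.17 to 2.62) for control day 4 over control day 3 and −0.02 (interval −0.48 to 0.44) for C2 ceramide over control day 4. Dleu2, host of miR-15a and miR-16, stood at 1.89, 0.924 and 1.27 TPM and was lower on control day 4, with a log2 TPM ratio of −1.03 (interval −1.49 to −0.58), while its log2 CPM ratio was −0.24. B830012L14Rik, a host between the imprinted genes Rian and Mirg that the rule left out, carries 9 miRNA and 9 snoRNA genes. It stood at 0.455, 0.231 and 0.587 TPM, lowest on control day 4, with a log2 TPM ratio of 1.35 (interval 0.67 to 2.06) for C2 ceramide over control day 4.

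The Platr genes (pluripotency-associated transcripts) were in part lower on control day 4 than on control day 3, and in part higher with C2 ceramide than on control day 4. All 9 Platr members and their values are described here because their names come from their known expression in ES cells. On control day 4, 5 were lower and none was higher than on control day 3. With C2 ceramide against control day 4, 4 were higher and none was lower. The medians of their log2 TPM ratios were −1.13 and 0.95, and against control day 3 C2 ceramide gave −0.43, with 1 higher. Of all genes, 9.45% were lower and 12.8% higher in the first comparison, and 12.3% lower and 9.97% higher in the second. Of tested genes of the members' types, 23.9% were lower in the first and 21.4% higher in the second. Both comparisons rest on the same control day 4 library. Platr10 stood at 63.0 TPM on control day 3, 16.8 on control day 4 and 46.6 with C2 ceramide, from 1160, 321 and 882 counts. It was lowest on control day 4, with log2 TPM ratios of −1.91 (interval −2.09 to −1.73) for control day 4 over control day 3 and 1.47 (interval 1.29 to 1.66) for C2 ceramide over control day 4. Platr22 stood at 5.71, 2.07 and 5.50 TPM, Platr7 at 2.73, 0.620 and 1.44, and Platr21, whose body overlaps Trap1a, at 6.70, 3.06 and 7.10. By CPM the log2 ratio of Platr21 for control day 4 over control day 3 was −0.95, so 4 Platr members were lower on that scale. Platr4 stood at 5.28, 2.12 and 3.68 TPM, with C2 ceramide not called against control day 4. Platr27 and Platr15 were highest with C2 ceramide, at 7.30 TPM against 2.93 on control day 3 and at 7.27 against 4.08, and Platr27 was the 1 called higher than on control day 3. Platr14 and Platr3 were not called in any comparison, and C2 ceramide gave their lowest value.

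Lncenc1, an RNA of naive ES cells, stood at 9.32, 4.43 and 8.22 TPM and Bvht, known from mesoderm and the heart, at 11.7, 5.42 and 12.2 TPM. Both were lower on control day 4, and C2 ceramide was within 2-fold of control day 3 for each. Bvht was called higher with C2 ceramide than in controls on day 4 and Lncenc1 was not, at a log2 TPM ratio of 0.89 (interval 0.69 to 1.09). Eprn was not called on control day 4. It stood at 2.95, 2.46 and 8.67 TPM, highest with C2 ceramide, with a log2 TPM ratio of 1.82 (interval 1.43 to 2.22) over control day 4. 5033406O09Rik had 58, 3 and 59 counts, and was lowest on control day 4, with log2 TPM ratios of −4.36 (interval −6.68 to −2.74) and 4.26 (interval 2.65 to 6.58). Among the 10 pluripotency markers, 1 was lower on control day 4 and 5 were higher and 1 was lower with C2 ceramide against control day 4. The lower one was Fgf5, a marker of the primed epiblast, at 176, 253 and 86.6 TPM. The part of these cells in the Platr values was not tested.

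**Figure D3:**
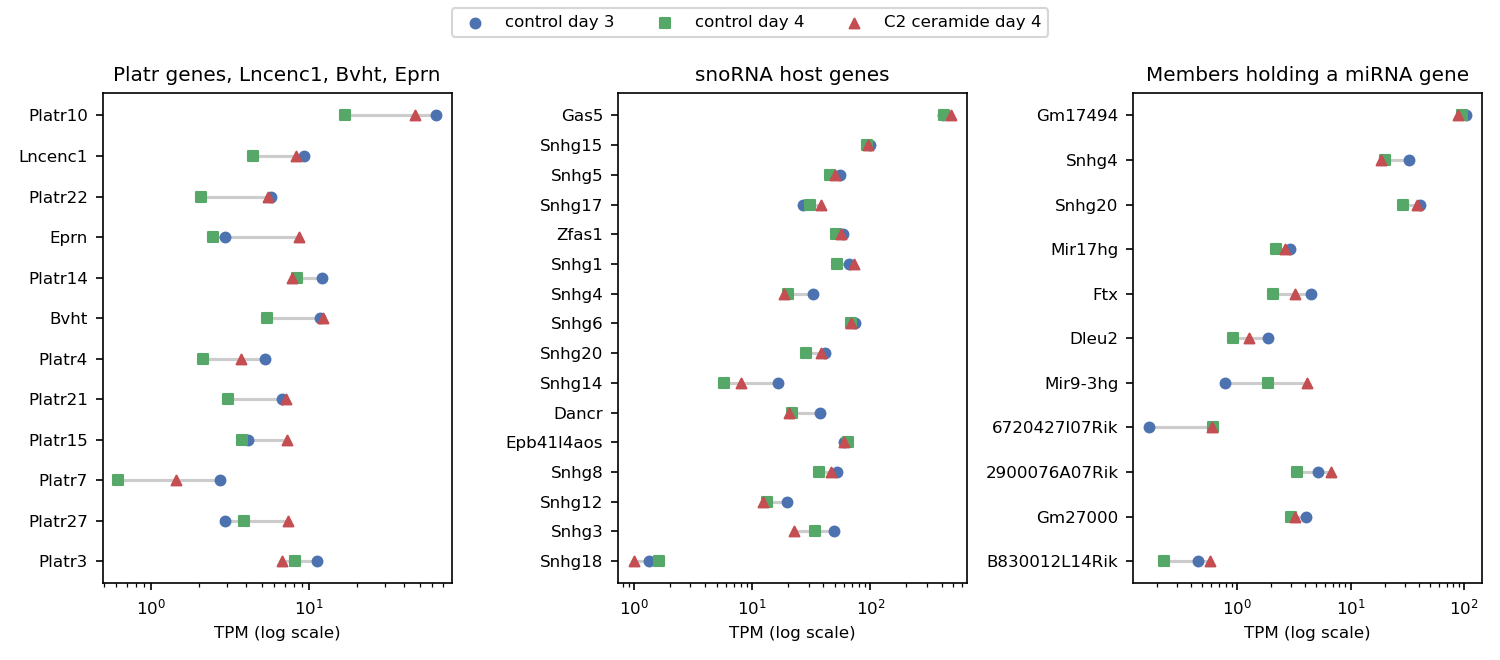
Level in TPM (horizontal, log scale) of the Platr members with Lncenc1, Bvht and Eprn, of the 16 snoRNA host genes, and of the 11 members that hold a miRNA gene, with 1 point per library. Control day 4 is the lowest point of Platr10 (16.8 TPM), while among the snoRNA hosts Gas5 spans 414 to 479 TPM and Snhg14 5.72 to 16.4 TPM.

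The start regions of the Platr genes had few CpG dinucleotides. Of 6 RefSeq promoters matched for the Platr genes and Lncenc1, none was CpG rich (a GC share of at least 50% and an observed over expected CpG ratio of at least 0.6), while 16 of the 19 matched snoRNA hosts and 33.5% of all promoters were. The median number of CpGs in a promoter was 4 and 25 in these 2 sets and 13 in the 111 matched members. The octamer ATGCAAAT was found on either strand in 5 of the 111 members and in 1.74% of all promoters, with Platr21 the only Platr gene among them. The T-box letters TCACACCT and the nuclear receptor letters TCAAGGTCA were found in none of the 111, and in 1.28% and 0.423% of all promoters. A matched sequence is a description and not a shown binding site. The 300-base promoters of Platr10, Platr22 and Platr7 are printed with that of Snhg1, each with the CpG dinucleotides in capitals and the start at base 251.
Platr10, chr3:75655682-75655981, minus strand, 1 CpG: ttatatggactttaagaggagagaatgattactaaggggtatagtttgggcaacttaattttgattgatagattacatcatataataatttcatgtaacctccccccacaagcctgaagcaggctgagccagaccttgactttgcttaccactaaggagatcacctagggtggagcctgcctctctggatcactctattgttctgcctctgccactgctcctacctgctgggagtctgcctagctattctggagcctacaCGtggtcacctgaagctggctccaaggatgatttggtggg
Platr22, chr1:136695961-136696260, plus strand, 6 CpGs: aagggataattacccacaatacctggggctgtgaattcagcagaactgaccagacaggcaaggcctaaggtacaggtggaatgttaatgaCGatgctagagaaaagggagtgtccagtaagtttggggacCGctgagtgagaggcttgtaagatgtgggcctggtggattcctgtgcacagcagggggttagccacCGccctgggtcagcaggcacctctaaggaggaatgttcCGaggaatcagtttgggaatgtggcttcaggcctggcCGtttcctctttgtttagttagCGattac
Platr7, chr10:84553289-84553588, minus strand, 0 CpGs: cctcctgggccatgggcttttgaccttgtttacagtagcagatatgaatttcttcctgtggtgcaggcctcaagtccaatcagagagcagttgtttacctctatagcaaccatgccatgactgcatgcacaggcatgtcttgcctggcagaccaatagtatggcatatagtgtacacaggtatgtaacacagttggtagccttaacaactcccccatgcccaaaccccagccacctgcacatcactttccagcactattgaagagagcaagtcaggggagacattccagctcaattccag
Snhg1, chr19:8723237-8723536, plus strand, 25 CpGs: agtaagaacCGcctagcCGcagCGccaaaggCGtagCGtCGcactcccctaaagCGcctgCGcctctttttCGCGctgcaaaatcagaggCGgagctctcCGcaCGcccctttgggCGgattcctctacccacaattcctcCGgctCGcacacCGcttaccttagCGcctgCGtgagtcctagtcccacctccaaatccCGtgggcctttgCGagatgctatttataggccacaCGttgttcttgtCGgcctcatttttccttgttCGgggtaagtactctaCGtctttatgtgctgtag

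Lhx1os and Gm45889 were the members with the largest ratios, and both were found mainly on control day 4. Lhx1os had 2 counts on control day 3, 185 on control day 4 and 0 with C2 ceramide, or 0.218, 19.8 and 0 TPM. Its log2 TPM ratio of control day 4 over control day 3 was 6.50 (interval 4.63 to 9.56), and with C2 ceramide it was at least 62.0-fold lower than on control day 4, against a floor of 3 counts per library. It is transcribed away from Lhx1, which encodes a homeodomain factor of anterior mesendoderm, from a start 126 bases away in RefSeq. Lhx1 had 11, 10418 and 41 counts, or 0.101, 139 and 0.909 TPM, so the pair was high in the same library. All 8 streak and mesoderm markers and all 5 definitive endoderm markers were higher on control day 4 than on control day 3. The part of these cells in the value of Lhx1os was not tested. The shared start region is printed with the bases between the RefSeq starts, both included, in capitals, and it held 33 CpGs.
Lhx1os, chr11:84525410-84525709, plus strand: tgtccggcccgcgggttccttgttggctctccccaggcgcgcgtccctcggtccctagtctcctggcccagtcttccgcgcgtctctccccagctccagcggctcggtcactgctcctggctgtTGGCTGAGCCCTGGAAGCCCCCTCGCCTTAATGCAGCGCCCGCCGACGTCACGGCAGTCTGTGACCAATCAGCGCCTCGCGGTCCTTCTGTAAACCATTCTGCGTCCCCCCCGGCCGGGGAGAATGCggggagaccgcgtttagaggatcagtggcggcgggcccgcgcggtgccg

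Gm45889, on chr7:142283210-142290418, had 0, 298 and 3 counts. It stood at least 95.2-fold higher on control day 4 than on control day 3. With C2 ceramide its log2 TPM ratio to control day 4 was −7.12 (interval −9.40 to −5.56). Other members that were highest on control day 4 were nearer to 2-fold. Gm50321 stood at 0.432, 1.90 and 0.777 TPM, and 8430429K09Rik at 1.71, 3.65 and 1.07 TPM. Stamos stood at 1.13, 3.61 and 0.803 TPM, C030037D09Rik at 0.585, 1.24 and 0.415, and Gm48488 at 0.260, 0.610 and 0.090.

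**Figure D4:**
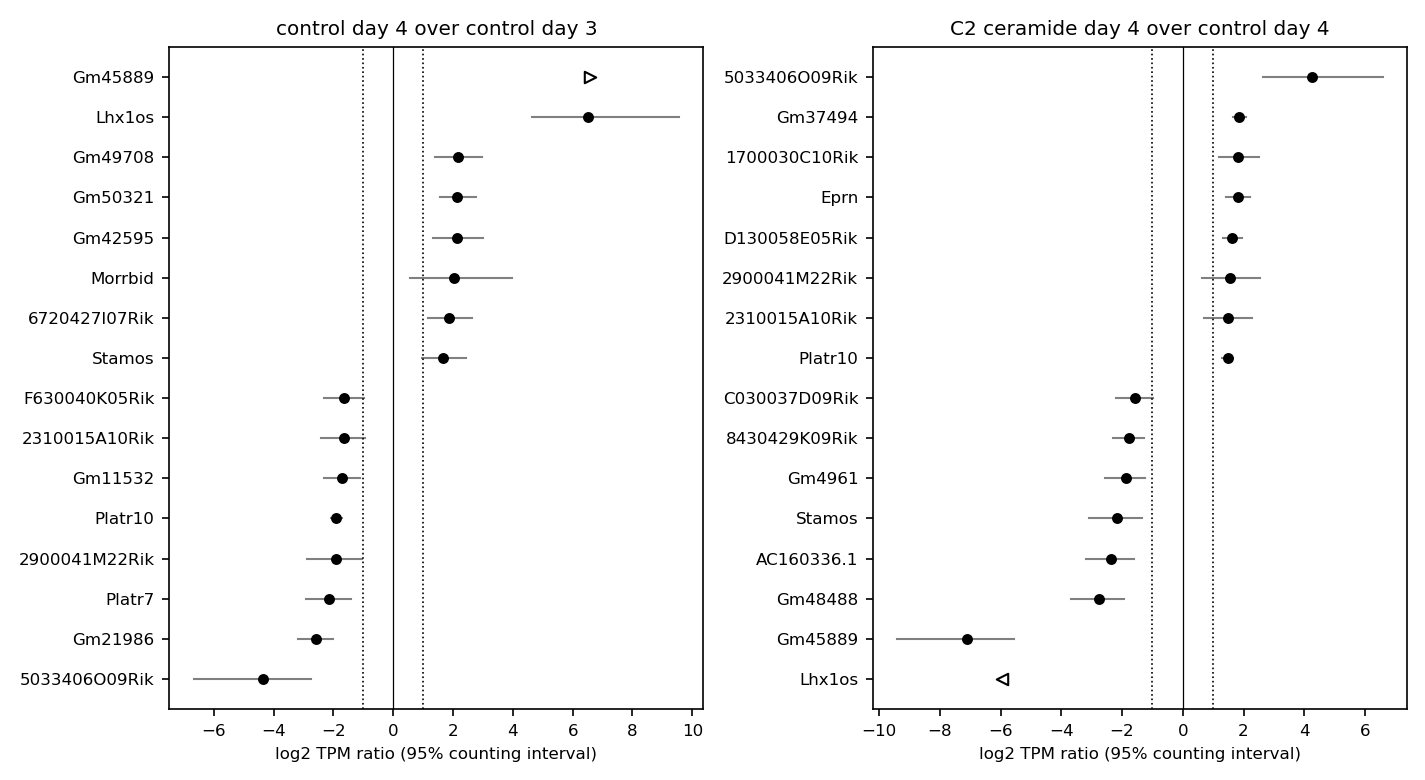
Log2 TPM ratio (horizontal) with its 95% counting interval of the 8 highest and the 8 lowest members by ratio among those with at least 50 counts in a library. Open triangles mark a bound against 3 counts where a library had none (Gm45889, at least 95.2-fold, and Lhx1os, at least 62.0-fold), and 5033406O09Rik has the smallest ratio on control day 4 and the largest with C2 ceramide.

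Further members stood apart with C2 ceramide. Gm37494 stood at 1.39, 0.863 and 3.14 TPM, but its counts were 313, 347 and 485, so its log2 TPM ratio over control day 4 was 1.86 (interval 1.66 to 2.07) and its log2 CPM ratio was 0.47. Of its 4 transcripts, the leading one differed between the libraries. D130058E05Rik stood at 3.24, 2.35 and 7.30 TPM, with a log2 TPM ratio of 1.63 (interval 1.32 to 1.96). Morrbid, an RNA known from myeloid cells that lies near the apoptosis gene Bcl2l11, had 4, 36 and 73 counts, and its log2 TPM ratio of C2 ceramide over control day 4 was 1.45 (interval 0.86 to 2.07). Gm4961 was lowest with C2 ceramide, at 2.81, 1.62 and 0.439 TPM, with a log2 TPM ratio of −1.88 (interval −2.55 to −1.25) to control day 4. AC160336.1 also was, from 88.29, 93.96 and 17.43 counts, which were not whole.

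Members highest on control day 3 included Gm21986, at 1.06, 0.177 and 0.331 TPM. Its body overlaps Nlgn3 and Med12, and its counts were not whole, so its reads cannot be told apart from theirs. Gm11532, at 0.656, 0.201 and 0.119 TPM, overlaps Sp6. F630040K05Rik stood at 2.17, 0.695 and 0.363 TPM, and D030068K23Rik at 1.52, 0.561 and 0.497. All 4 were below 0.5 times their control day 3 TPM in both day 4 libraries, but by CPM the log2 ratios of F630040K05Rik and D030068K23Rik for control day 4 over control day 3 were −0.97 and −0.73. The reverse pattern, lowest on control day 3, was seen in Gm42595, at 0.435, 1.89 and 1.57 TPM, and in Gm49708, at 0.981, 4.35 and 2.28 TPM.

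The remaining lists held few members. Of 12 listed RNAs of the Hox clusters none was a member, of 5 of mesendoderm and heart only Bvht was, and of 18 neural ones Lhx1os and Gm2694 were, the latter at 26.8, 23.0 and 24.4 TPM. Of 8 RNAs of growth, p53 and stress, 4 were members, among them Pvt1, a neighbour of Myc, at 3.98, 6.04 and 5.43 TPM. Oip5os1, a conserved RNA with a miRNA site that is listed with the pluripotency RNAs, stood at 24.7, 25.5 and 22.8 TPM, and 2900097C17Rik, listed with the nuclear RNAs, at 16.1, 25.4 and 18.3 TPM. Pvt1, Gm2694, Oip5os1 and 2900097C17Rik were not called in any comparison.

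Many members lay at coding genes. Of the 200, 63 overlapped the body of a protein-coding gene, 55 of them in exons, and 56 were transcribed in the opposite direction to a coding gene whose start lay within 2000 bases. The kit does not mark strand and the counting is not stated to use it, so reads of a member and of a gene on the other strand at the same place cannot be told apart. Of the 56 head-to-head members, 1 was higher and 8 were lower with C2 ceramide than in controls on day 4, and 5 were higher and 2 were lower on control day 4 than on control day 3. With C2 ceramide the 8 lower are 14.3% of the 56, beside 12.3% of all genes, and the 1 higher is 1.79%, beside 9.97%. On control day 4 the 5 higher are 8.93%, beside 12.8%, and the 2 lower are 3.57%, beside 9.45%.

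Some pairs moved alike and others did not. Gm48488 overlaps Gas1, the gene of a Hedgehog co-receptor on the other strand, over 589 exon bases, and Gas1 stood at 6.97, 57.8 and 6.81 TPM. D130058E05Rik overlaps Gbx2, a homeobox gene of the hindbrain border and of naive pluripotency, over 946 of its 3057 exon bases, and Gbx2 stood at 2.37, 2.76 and 17.2 TPM. In both pairs the library with the highest level was the same. Serpini1 lies on the other strand from Platr10, with 3951 bases between the gene bodies and 98184 bases between the starts. Serpini1 stood at 7.48, 2.82 and 6.93 TPM, lowest on control day 4 as was Platr10. Stamos and 8430429K09Rik differed from their partners. Stam, with a start 164 bases away, stood at 29.7, 29.0 and 23.9 TPM, and Rnf185, with a start 2 bases away, at 27.1, 25.8 and 26.6 TPM, while the lncRNA genes varied by more than 2-fold.

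**Figure D5:**
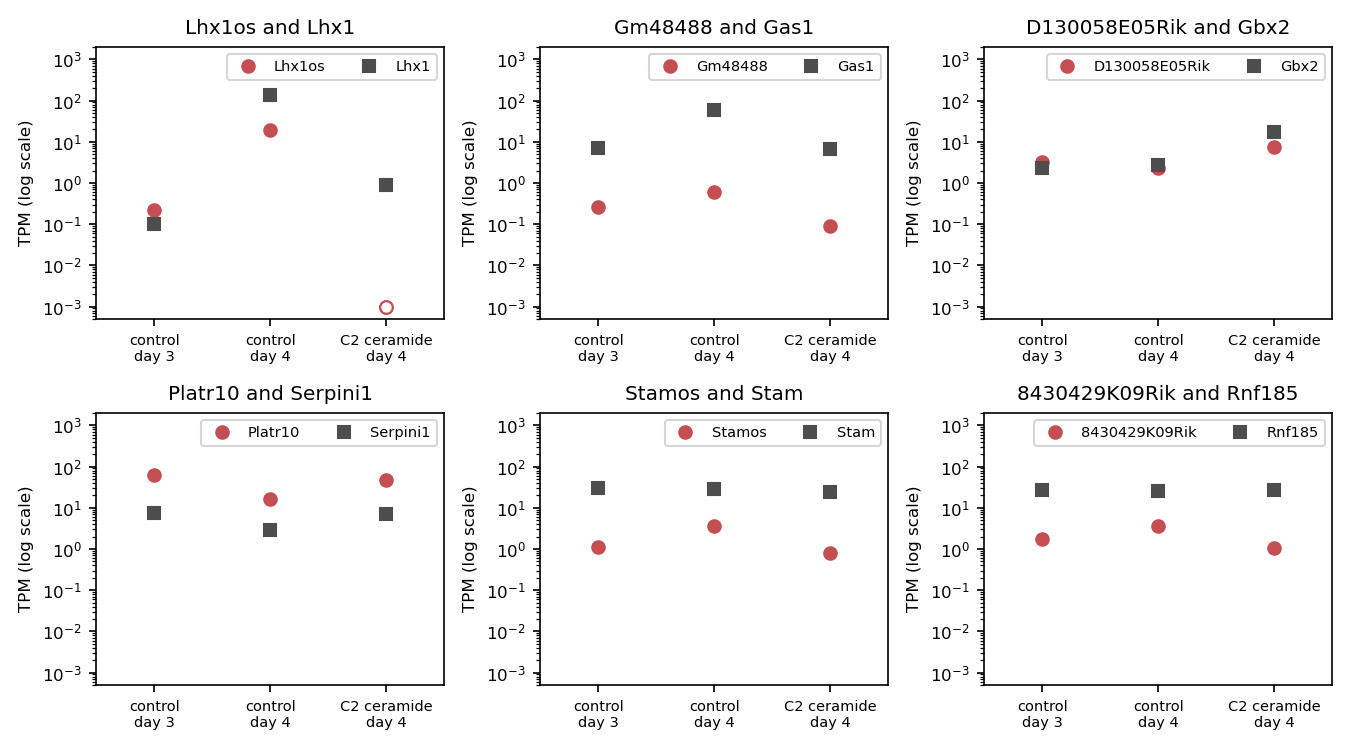
Level in TPM (vertical, log scale, same range in every panel) of 6 lncRNA genes (circles) and a neighbouring coding gene (squares) in each library. An open circle marks Lhx1os at 0 TPM with C2 ceramide, drawn at 0.001 TPM. Lhx1os and Lhx1 are highest on control day 4 (19.8 and 139 TPM), while Rnf185 holds at 25.8 to 27.1 TPM.

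Across the 50 members with a measured coding gene within 5 kb and no overlap, Pearson's r of the log2 TPM ratios of the pair was 0.48 for control day 4 over control day 3, 0.45 for C2 ceramide over control day 4 and −0.25 for C2 ceramide over control day 3, and Spearman's rho was 0.05, 0.36 and 0.14. Without the Lhx1os pair, r was −0.04, 0.12 and 0.12 over 49 pairs, and rho was −0.002, 0.32 and 0.20. The 49 still held the pair of Snhg8 and Prss12, and Prss12 stood at 0, 4.53 and 0 TPM. Its log2 TPM ratios of 12.1 and −12.1 in the first 2 comparisons were set by the floor of 0.001 TPM. These values of r therefore still hold an extreme pair, and r without it was not computed. For 66 members with the nearest coding gene over 5 kb away, r was 0.07, 0.06 and −0.03. These are descriptions across genes, which share libraries and are not independent. Of the 9 members within 5 kb called in the first comparison, and of the 9 in the second, the coding gene was called the same way in 2, Lhx1 and Serpini1. Of the 6 called with C2 ceramide against control day 3, the coding gene was called the same way in none and the other way in 2. Lhx1os is among these, with 2 counts on control day 3 and 0 with C2 ceramide, beside 11 and 41 for Lhx1. Its log2 TPM ratio of −7.77 there was set by the floor of 0.001 TPM, so its direction is not firm. The r of −0.25 holds this value too.

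For a few members TPM and counts disagreed. 2810429I04Rik stood at 2.45, 5.02 and 7.32 TPM from 81, 64 and 134 counts, so it was called higher on control day 4 by TPM with a lower count. 2500002B13Rik stood at 1.25, 1.84 and 0.817 TPM from 109, 38 and 68 counts, and was called lower with C2 ceramide by TPM with a higher count. They have 13 and 2 transcripts, and the transcript with the highest TPM differed between libraries in 40 of the 139 members with more than 1 transcript. 2900076A07Rik, a host of miR-1839, stood at exactly 2 times its control day 4 level with C2 ceramide, 6.81 against 3.40 TPM, and was therefore not called.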

How the data were processed

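RNA of 3 EB samples was treated with DNase I, copied with the SMART-Seq v4 kit (primed on poly(A), not stranded) and sequenced by a service company. Reads were mapped with DRAGEN to GRCm38, and the authors deposited values in TPM and expected counts, which were not whole for some genes, for 55487 genes and for their transcripts. The strand setting of the counting is not given in the sources used here. The study's methods name release M25 for the reference. Exons came from GENCODE M21, the release used here, whose identifiers and coordinates matched 54349 of the genes and 189 of the 200 members, so the exon overlaps are approximate. The members and gene lists were chosen with earlier results of these data known.

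Python 3.11.15 was used with SciPy 1.17.1, pandas 2.3.3, NumPy 2.4.6 and Matplotlib 3.10.9. Zero TPM values were raised to 0.001. Genes with at least 10 counts in a library, 17655 in all, were the background. Intervals are exact conditional (Clopper-Pearson) 95% intervals of the ratio of rounded counts, scaled by library totals and centred on the TPM ratio. Copies made by PCR are not independent molecules. Where a library had 0 counts, the fold is a bound against 3 counts. With 1 library a group there was no test, p-value or SD.

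Named members are the 12 with the highest TPM, the 8 largest and 8 smallest ratios of each comparison among members with at least 50 counts, members of the lists, hosts of small RNAs, those at the limit of the 200, and up to 5 a comparison whose TPM and CPM log2 ratios differed by over 1. Other names were chosen after their values were seen. Alternatives were CPM, TMM factors (edgeR 4.0.16), DESeq2 1.42.0 size factors in R 4.3.3, pseudocounts, and other sets and thresholds. The intervals of the count ratios, before they were centred on the TPM ratio, were tested on data simulated with counting error only. That simulation cannot show an error that comes from the centring.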

Additional observations from a re-analysis of the deposited data

How the results depend on the processing

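With 1 library per group, leaving a library out or pairing samples was not possible. No paired analysis was possible because no group had a replicate. Counts below are given as higher and lower members, for control day 4 over control day 3, then C2 ceramide over control day 4, then C2 ceramide over control day 3. They were 15 and 28, 17 and 15, and 15 and 16. The 3 medians over the members kept their sign under the 12 alternatives tried for them, at −0.23 to −0.09, 0.08 to 0.13 and −0.14 to −0.05. The first, −0.11 by TPM, moved by over 0.1 to −0.23 with TMM factors and to −0.22 both with DESeq2 size factors and in the 100 members with the most counts. CPM, TMM factors, DESeq2 size factors, 0.1 TPM added and the 200 genes with the highest TPM sum left all 6 counts within 1.5 times, as did leaving out, a choice made after seeing the data, the 26 members that RefSeq lists as coding or pseudogene or whose exons lie mostly in those of coding genes (14 and 25, 17 and 14, and 15 and 13). Each other alternative moved at least 1 of them further. The other scalings moved the median of all genes by at most 0.061 on the log2 scale.

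The counts moved with the threshold and the set of members. Adding 1 TPM gave 6 and 8, 7 and 4, and 6 and 4. A 1.5-fold threshold gave 27 and 50, 41 and 29, and 27 and 39, and a 4-fold threshold gave 6 and 3, 1 and 5, and 3 and 5. Asking for the whole interval beyond 2-fold gave 6 and 8, 7 and 7, and 7 and 8. The 75 members with at least 100 counts in every library held 0 and 6, 3 and 0, and 3 and 1. Among the 100 members with the most counts there were 1 and 10, 6 and 3, and 5 and 4, and the first 400 genes held 55 and 74, 64 and 54, and 51 and 53. The 119 lincRNA genes had 18 lower on control day 4, 11 and 8 with C2 ceramide against control day 4, and 9 lower against control day 3. The 81 processed_transcript genes held 4 and 10, 6 and 7, and 3 and 7. The 137 members that overlap no coding gene held 7 lower with C2 ceramide against control day 3. A restriction chosen after seeing the data, to the 106 members with whole counts, left 8 and 6 lower with C2 ceramide, against control day 4 and control day 3. These subsets hold fewer or more genes than the 200, which changes the counts by construction.

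For control day 4 over control day 3, 2810429I04Rik had a log2 ratio of 1.04 by TPM and −0.40 by CPM, −0.44 with TMM factors and −0.43 with DESeq2 size factors. For C2 ceramide over control day 4, 2500002B13Rik had −1.17 by TPM and 0.83, 0.86 and 0.85 by the same scalings. The cause was not tested. A value under about 10 counts, as for Lhx1os on control day 3 or 5033406O09Rik on control day 4, limits its ratio to a wide interval.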
